A study of Danio rerio with 6 samples.

Results

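Long intergenic non-coding RNAs (lincRNAs) whose gene body spans 5000 bp or more of the zebrafish genome, and which gathered at least 50 small RNA reads per library on average, were examined in embryos of irradiated and of non-exposed parents. The lincRNA table lists 1315 transcripts, of which 1086 had a read in at least 1 library and 179 had a mean raw count of 50 or more over the 6 libraries. Of these, 100 also spanned 5000 bp or more. Left out were 9 transcripts that had been singled out on their difference between the same groups, and 3 that overlap a piRNA cluster, which left 88 members. Members were thus chosen on measured counts and partly on the contrast itself, so their values in that contrast are given as a description and carry no test. At the lower edge of the count, ENSDART00000194553.1 (mean 50.5) was inside and ENSDART00000194360.1 (mean 48.5) outside. At the lower edge of the span, ENSDART00000194901.1 (5003 bp) was inside and ENSDART00000194598.1 (4800 bp) outside.

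All libraries came from whole wild-type AB embryos at 5.5 h post fertilization (hpf, 50% epiboly), each from a pool of 100 embryos. F1-γ embryos descended from adult fish of 6 months that received gamma radiation from a cobalt source at 8.7 mGy/h for 27 days, 5.2 Gy in total, and were mated 1 year later. The F1-C embryos came from parents of the same age, kept separately without exposure and also mated 1 year later. There were 3 libraries per group. Each library averages over all embryos and cell types of its pool, so fewer cells carrying an RNA and less of it per cell cannot be told apart.

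LincRNAs are transcribed from DNA between protein-coding genes, usually spliced and polyadenylated like mRNAs, and in zebrafish many are present at low levels and for a short window of development. Their sequences are poorly conserved, and for most no function has been described. At epiboly the blastoderm spreads over the yolk, and the zygotic genome is already being transcribed. The libraries measured here hold short RNAs, so a read within the span of a lincRNA may be a fragment of its transcript or another small RNA from one of its exons or introns.

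The lincRNA counts summed to between 96906 and 131439 per library, less than the miRNA counts of the same libraries, which summed to between 704953 and 1464138. miR-430a-3p, a zygotic miRNA that is abundant in blastula and gastrula, held 40.4% of the miRNA counts on average, miR-430b-3p 8.90% and miR-430c-3p 2.83%. miRNAs that mark differentiated tissue were low, with 0 to 2.98 counts of miR-124-3p (neurons) and 12 to 50 of miR-122-5p (liver). miR-451-5p (red blood cells) had 13 to 35 counts, miR-206-3p (muscle) 4 to 40 and miR-9-5p (neurons) 250 to 724, and miR-1-3p (muscle) made up 0.0054% of the miRNA counts. Levels below are given as raw counts or as CPM, counts brought to the same library size after TMM scaling (trimmed mean of M-values). Levels of different lincRNAs are compared only as counts per kb of genomic span.

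The members were spread over 24 chromosomes, with 11 on chromosome 7, 8 on chromosome 4 and 7 on chromosome 3, and 42 lay on the plus and 46 on the minus strand. The long arm of zebrafish chromosome 4 is known as a repeat-rich, gene-poor arm. Chromosome 4 held 9.09% of the members, 9.73% of all lincRNAs of the table and 32.9% of the 79 lincRNAs that had as high a mean count and a span under 5000 bp. From those 79 neither piRNA cluster overlaps nor lincRNAs differing between the groups were removed, so they were not filtered like the members. Spans of the members ran from 5003 to 502526 bp with a median of 25.2 kb, and together they covered 5.16 Mb, with overlaps counted for each member. Of the 88, 64 spanned 10000 bp or more, 28 spanned 50000 bp or more and 16 spanned 100000 bp or more.

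Long members had few reads per unit of length. The median was 7.44 counts per kb of span, with a range of 0.22 to 395, against a median of 93.8 and a range of 13.4 to 11600 for the shorter lincRNAs. Since both sets share the same minimum count, a longer span sets a lower floor on counts per kb. The raw count itself showed little relation to span among the members (Spearman's rho = -0.17 over 88 members of the same libraries, a description across lincRNAs that are not independent). ENSDART00000148063.3 on chromosome 19 had the most counts per kb of any member (395), followed by ENSDART00000164487.2 (343), ENSDART00000169958.2 (301), ENSDART00000194409.1 (117) and ENSDART00000157013.2 (102). The longest member, ENSDART00000175829.2 (chromosome 11, 502526 bp), had 0.25 counts per kb, ENSDART00000194049.1 (301806 bp) had 0.515 and ENSDART00000194921.1 (248194 bp) had 0.22, the lowest of all. ENSDART00000194441.1 (251842 bp) had 0.352. The exception among the 5 longest was ENSDART00000194122.1, which spans 274688 bp near the start of chromosome 14 and had 3.96 counts per kb.

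**Figure D1:**
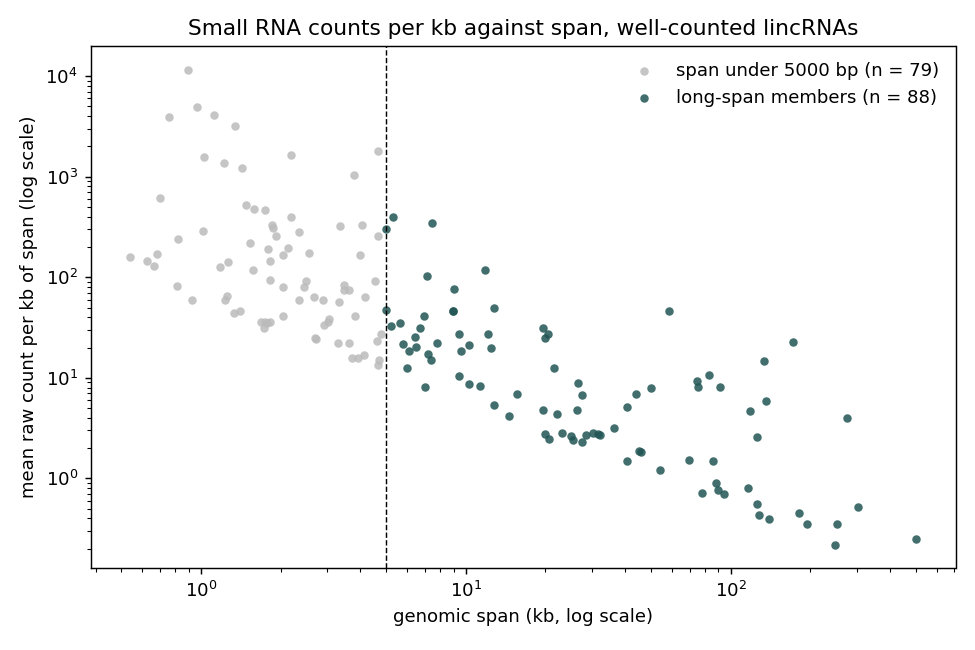
Mean raw count per kb of span over the 6 libraries (vertical, log scale) against genomic span in kb (horizontal, log scale) for the 88 long-span members and the 79 shorter lincRNAs with a mean count of 50 or more; the dashed line marks 5 kb. Members lie between 0.22 and 395 counts per kb, and the empty lower left follows from the minimum mean count of 50.

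A few members held most of the reads. The first by mean count, ENSDART00000194896.1, held 11.2% of all member counts, the first 3 held 26.4%, the first 10 held 54.5% and the first 20 held 72.7%. Mean counts of 1000 or more were reached by 8 members, of 500 or more by 19 and of 100 or more by 53. ENSDART00000194896.1 lies on chromosome 5 (GRCz10, 58936040 to 59108492, plus strand), and its raw counts were 2996, 3076 and 2277 across F1-C against 3957, 5787 and 5188 across F1-γ. In CPM it was 30184.7, 27829.0 and 26554.2 in F1-C against 26474.7, 40939.6 and 36166.5 in F1-γ. The first F1-γ library thus lay below all F1-C libraries and the other two above them, so the groups overlapped, and the fitted log2 fold change of F1-γ over F1-C was 0.29 (SE 0.154).

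ENSDART00000194081.1, on chromosome 6 (20402251 to 20460647, plus strand), had 25086.8, 24164.9 and 24490.0 CPM in F1-C against 19509.8, 22284.4 and 20836.9 CPM in F1-γ. After TMM scaling all F1-γ libraries were below all F1-C libraries, with a log2 fold change of -0.24 (SE 0.097), whereas its raw counts were higher in F1-γ (2916, 3150 and 2989 against 2490, 2671 and 2100) and table totals gave a log2 fold change of 0.12. The F1-C libraries differed among themselves by a coefficient of variation (CV, the SD as a percentage of the mean) of 1.90%. It ends or begins 0.668 kb from the nearest piRNA cluster, the shortest such distance of any member. ENSDART00000148063.3 (chromosome 19, 27879710 to 27885039, minus strand) had 21520.2, 17868.1 and 19895.2 CPM in F1-C against 16552.5, 16172.1 and 14283.9 CPM in F1-γ, again without overlap and with a log2 fold change of -0.34 (SE 0.111). With table totals this became 0.02. In every other setting tried, ENSDART00000194081.1 and ENSDART00000148063.3 stayed below 0. With library sizes from the miRNA counts they were at -0.22 (SE 0.325) and -0.33 (SE 0.33). The groups overlapped for ENSDART00000194415.1, on chromosome 23, which had between 15099.7 and 16673.0 CPM in all 6 libraries, with a log2 fold change of 0.02 (SE 0.097).

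Apart from ENSDART00000164487.2, described further on, the remaining members with a mean count above 1000 lay on chromosomes 14 and 18. ENSDART00000169958.2, on chromosome 18, had 10250.8 to 11324.3 CPM in F1-C against 11267.0, 14566.2 and 14674.3 CPM in F1-γ, so its first F1-γ library fell inside the F1-C range and the other two lay above it. ENSDART00000194409.1, also on chromosome 18, had 11148.8 to 12704.6 CPM in F1-C against 9769.8 to 12123.4 CPM in F1-γ, which overlap. ENSDART00000194122.1 had 6367.4, 9336.7 and 10052.6 CPM in F1-C against 8850.1 to 9676.0 CPM in F1-γ, with the first F1-C library low and the remaining 5 close together.

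**Figure D2:**
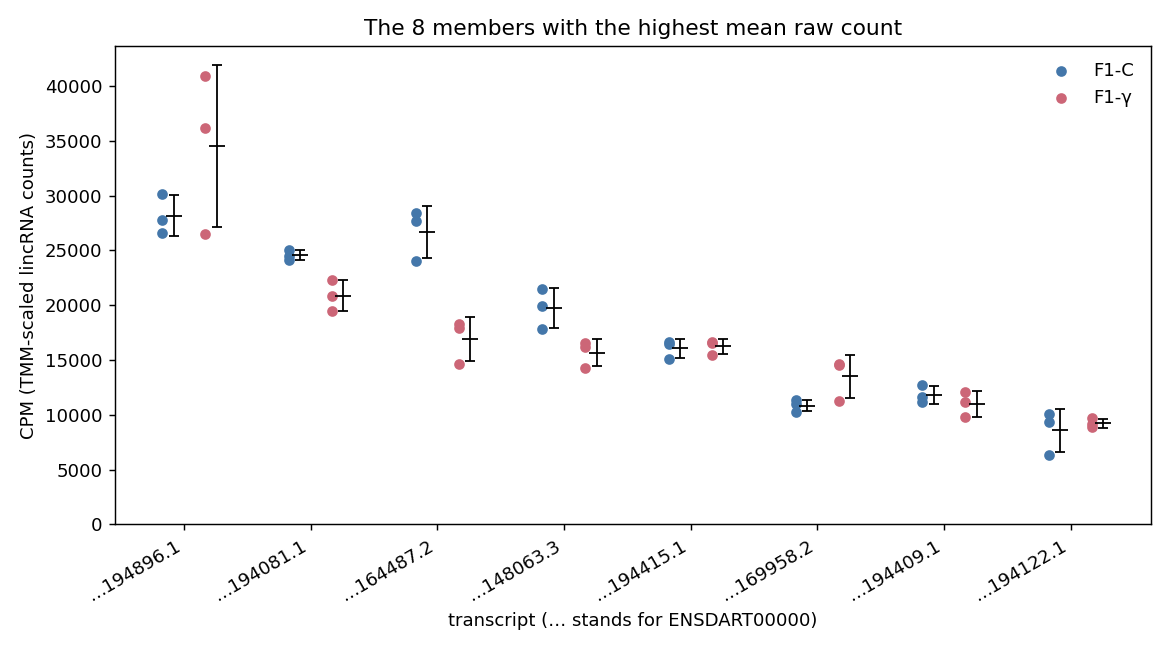
CPM (TMM-scaled, vertical, from 0) of the 8 members with the highest mean raw count, with a point for each F1-C and F1-γ library and the group mean with its SD (n = 3) beside the points. The groups do not overlap for 3 transcripts, ENSDART00000194081.1, ENSDART00000164487.2 and ENSDART00000148063.3, lower in F1-γ after TMM scaling (with table totals the first and the last of these turn to 0.12 and 0.02 in log2 fold change), and the first F1-γ library of the leftmost one lies at 26474.7 CPM, under every F1-C library.

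Names and transcript sequences were at hand for a pair of members. The sequences were taken from alignments given with the study. They may cover only part of a transcript, and positions count from the first base given there. ENSDART00000164487.2 is si:zfos-754c12.1 and ENSDART00000157923.2 is si:ch211-209n20.60, which are names after genomic clones and tell of no function. A stretch of each, 150 bases long and 5′ to 3′, is shown here because these are the named members with the lowest and the highest fitted fold change among the 58 members in the main fit. Capitals mark the longest dinucleotide repeat of si:ch211-209n20.60 (11 AC units, positions 210 to 231 of the sequence) and the longest run of A and T of si:zfos-754c12.1 (19 bases, positions 1600 to 1618).
si:ch211-209n20.60, positions 146 to 295: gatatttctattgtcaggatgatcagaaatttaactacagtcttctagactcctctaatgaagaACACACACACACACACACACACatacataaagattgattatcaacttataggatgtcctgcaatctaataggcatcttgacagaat
si:zfos-754c12.1, positions 1534 to 1683: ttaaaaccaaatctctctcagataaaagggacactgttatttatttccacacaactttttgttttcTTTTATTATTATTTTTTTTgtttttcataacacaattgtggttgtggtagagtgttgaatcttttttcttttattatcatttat
The sequence at hand of si:ch211-209n20.60 is 833 bases long, 9.21% of its 9044 bp span, with 35.7% G and C. That of si:zfos-754c12.1 is 2177 bases long, 29.2% of its 7447 bp span, with 42.0% G and C. Its composition changed along the sequence, with 52.9% G and C before its midpoint and 31.1% after it, against 35.8% and 35.5% in si:ch211-209n20.60. No stretch of 18 bases was shared, on either strand, between either sequence and the others among the 9 transcripts whose sequences were at hand. Neither sequence holds the reverse complement of any of its own stretches of that length. The remainder of each span was not divided into exon and intron, and which part of the span the reads came from is not recorded in the counts.

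The comparison of the groups asks whether these lincRNAs differ in embryos whose parents were irradiated before mating. Over the whole lincRNA table, 125 lincRNAs had more than 100 counts in at least 3 libraries and were tested with edgeR's quasi-likelihood test, and 18 (14.4%) were called. A call needed a Benjamini-Hochberg adjusted p under 0.05 with a log2 fold change beyond 0.6 in either direction. Of the calls, 4 (3.2%) were higher in F1-γ and 14 (11.2%) lower. Of the 88 members, 58 passed this filter, and 2 of the 58 were among those called higher and 1 among those called lower. The rule had removed other called lincRNAs, so nothing is read from these counts. The study also lists the 3 called members, ENSDART00000157923.2, ENSDART00000194508.1 and ENSDART00000164487.2, as differentially expressed in the same directions. Its list comes from the same libraries and thresholds, so it is no separate observation. The filter was passed by 8 members only through their F1-γ libraries, and 43 had more than 100 counts in all 6. The log2 fold change of the 58 ran from -0.66 to 0.77, with 37 above and 21 below 0, and 14 lay within 1 SE of 0. The median of the 58 was 0.23 beside 0.02 over the 125 lincRNAs tested. The 8 that passed only through F1-γ all lay above 0 (0.05 to 0.62), and 0 members passed only through F1-C. The filter favours positive values in those 8, and they are part of the split and of the median.

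The same was described over all 88 members with the filter at a mean count of 50, where 179 lincRNAs were tested. There 30 (16.8%) were called, 14 (7.82%) higher and 16 (8.94%) lower, and members made up 6 of those called higher and 1 of those called lower. The log2 fold change of the 88 members ran from -0.63 to 0.91, with 54 above and 34 below 0, and their median was 0.17 beside 0.05 over the 179. In CPM, all F1-γ libraries were above all F1-C libraries for 22 members and below them for 12, and the groups overlapped for 54. Over the 179 lincRNAs the groups were apart in the higher direction for 40 (22.3%) and in the lower direction for 41 (22.9%). With totals of the table in place of TMM scaling the median over the 125 tested moved from 0.02 to 0.39 and the split from 4 higher and 14 lower to 43 higher and 8 lower, with 29 members among the higher and 0 among the lower. DESeq2, with size factors from the lincRNAs with a read rather than the tested ones, gave 14 higher and 10 lower. Members were 7 of the higher and 0 of the lower. These included ENSDART00000174147.2, ENSDART00000156870.3, ENSDART00000155117.2 and ENSDART00000152821.2, which had passed the filter only through F1-γ, where a positive value is favoured. They were also among the members called higher with table totals. ENSDART00000174147.2 and ENSDART00000156870.3 had near-equal counts, given further on. When library sizes came from the miRNA or the piRNA cluster counts, edgeR called 10 and 9 of the 125 lincRNAs and 0 members, with 5 and 6 of the 58 members below an unadjusted p of 0.05. The members called in the main fit then had SEs of 0.309 to 0.343, beside 0.121 to 0.163 in the main fit. Their log2 fold changes were 0.80 and 0.91 for ENSDART00000157923.2 and 0.73 and 0.80 for ENSDART00000194508.1. For ENSDART00000164487.2 they were -0.657 and -0.575.

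**Figure D3:**
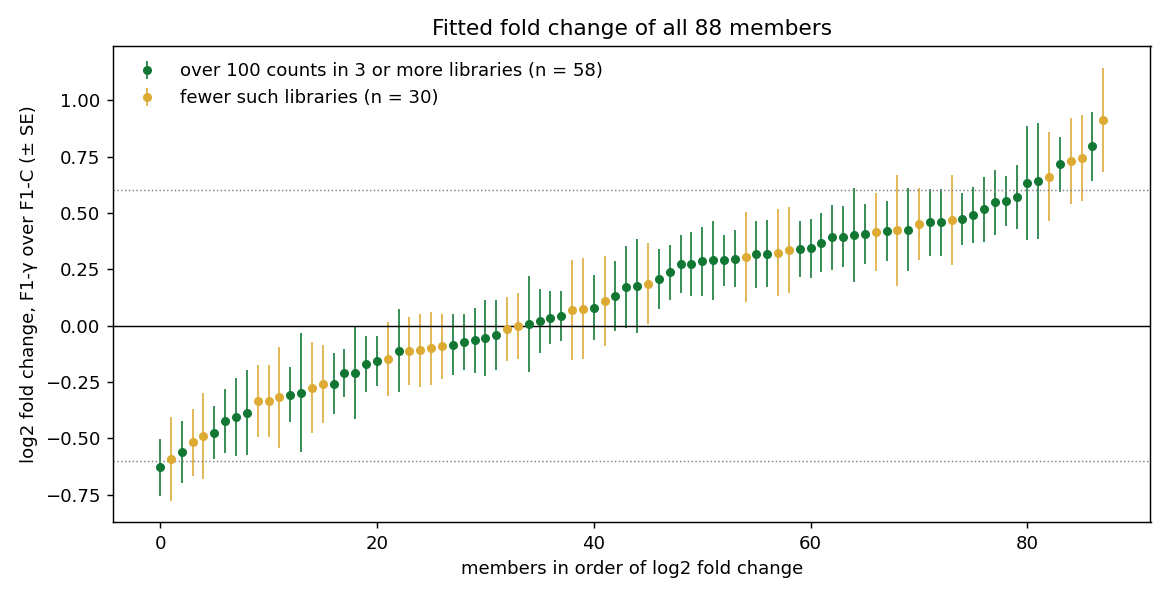
Fitted log2 fold change of F1-γ over F1-C with its SE (vertical) for all 88 members in order (horizontal), from the edgeR fit of the 179 lincRNAs with a mean count of 50 or more. Colours mark the 58 members with more than 100 counts in at least 3 libraries and the other 30, and dotted lines mark -0.6 and 0.6; values run from -0.63 to 0.91.

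si:ch211-209n20.60 (ENSDART00000157923.2, chromosome 4, 38126500 to 38135543, minus strand), the transcript with the AC repeat shown above, had the highest fitted change of the 58. Its raw counts were 405, 438 and 353 in F1-C against 773, 1149 and 1071 in F1-γ, and its CPM were 4080.4, 3962.7 and 4116.7 in F1-C against 5171.8, 8128.5 and 7466.1 in F1-γ. The F1-C libraries were close together (CV 1.99%) and all F1-γ libraries lay above them, with the first F1-γ library nearest. The log2 fold change was 0.77 (SE 0.163). It was 0.97 without the first F1-γ library and 0.67 without the second.

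ENSDART00000194508.1 (chromosome 14, 18545105 to 18636001, minus strand) had the second highest. Its raw counts were 408, 515 and 381 in F1-C against 911, 1077 and 1092 in F1-γ, or 4110.6, 4659.3 and 4443.2 CPM against 6095.1, 7619.1 and 7612.5 CPM. Here too the first F1-γ library was the lowest of its group and still above every F1-C library. The log2 fold change was 0.69 (SE 0.126), and it was between 0.61 and 0.82 when any single library was left out.

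si:zfos-754c12.1 (ENSDART00000164487.2, chromosome 12, 20371009 to 20378455, plus strand) had the lowest fitted change. Its raw counts were 2821, 3065 and 2058 in F1-C against 2729, 2069 and 2569 in F1-γ, which overlap. After scaling they were 28421.6, 27729.5 and 24000.2 CPM in F1-C against 18258.6, 14636.9 and 17909.0 CPM in F1-γ, without overlap. The log2 fold change was -0.66 (SE 0.121) with TMM and -0.30 (SE 0.126) with table totals alone. It was -0.53 without the second F1-γ library, where the call was lost, and -0.57 in DESeq2, where it was not called.

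The next lowest members of the main fit were not called in it. ENSDART00000154396.2, on chromosome 15, had raw counts of 112, 134 and 102 in F1-C against 128, 109 and 103 in F1-γ, and a log2 fold change of -0.59 (SE 0.125). It was called lower in some other settings, such as without the first F1-C library (-0.65) or the first F1-γ library (-0.63). It was not called in DESeq2 (-0.50) or with table totals (-0.23). ENSDART00000164527.2, on chromosome 4, had 215, 235 and 190 against 232, 202 and 231 counts and a log2 fold change of -0.50 (SE 0.117). Its counts may be shared with an opposite-strand transcript, given further on. ENSDART00000153572.2, also on chromosome 4, had 171, 164 and 136 against 147, 187 and 173 counts and a log2 fold change of -0.45 (SE 0.145). For these 3 the raw counts of the groups overlap and the CPM do not, and each F1-γ library lies under all F1-C libraries.

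More members were called when the first F1-γ library was left out, and the 3 called in the main fit stayed called. Without this library, 113 lincRNAs and 50 members passed the filter, and 30 lincRNAs were called, 15 higher and 15 lower. Members made up 8 of these calls, 6 higher and 2 lower. They included both transcripts of an opposite-strand pair on chromosome 11, ENSDART00000194925.1 and ENSDART00000194148.1, at a log2 fold change of 0.62. A CPM under 0.75 of both other libraries of its group was found in this library for 9 members, among them ENSDART00000194896.1, ENSDART00000157923.2 and ENSDART00000189820.1.

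Replicate libraries of a group were close for most members. The median CV over the 88 was 8.98% in F1-C against 12.5% in F1-γ, with ranges of 1.1% to 36.1% and 1.68% to 32.7%, and 55 members had the larger CV in F1-γ. For the shorter lincRNAs the medians were 11% and 10%. The variance between libraries was divided by the mean of counts scaled to a common library size. Over the members this ratio had a median of 1.26 in F1-C against 2.80 in F1-γ. Independent counting alone gives a mean of about 1 but, with 3 libraries, a median below 1, so most members would then lie at or below 1. The ratio was at or below 1 for 42 members in F1-C against 21 in F1-γ. The CV showed almost no relation to span (Spearman's rho = 0.06 over 88 members) and a weak negative one to the mean count (rho = -0.31), both as descriptions.

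The steadiest member in F1-C was ENSDART00000139533.2 on chromosome 2, with 4382.6, 4415.0 and 4478.2 CPM (CV 1.1%) and with 3726.7, 3784.8 and 4175.7 CPM in F1-γ, all lower at a log2 fold change of -0.18 (SE 0.111). Its raw counts were all higher in F1-γ (557, 535 and 599 against 435, 488 and 384), and table totals gave 0.18. ENSDART00000194647.1 on chromosome 15 followed with 2347.5, 2388.4 and 2425.7 CPM (CV 1.64%) and 2522.4, 3353.3 and 3046.4 CPM in F1-γ, all higher. The F1-γ libraries were less close, with SDs of 244 and 420 CPM beside 48.6 and 39.1 CPM in F1-C. Both members were picked for the lowest CV in F1-C, so a wider spread in F1-γ follows in part from that choice.

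The least steady members shared a low first F1-C library. ENSDART00000174147.2 had a CV of 36.1% in F1-C, ENSDART00000156870.3 of 34.5% and ENSDART00000157013.2 of 34.3%. ENSDART00000157013.2, on chromosome 9, had 343 counts in the first F1-C library and 694 and 612 in the others, or 3455.7 CPM against 6278.7 and 7137.1, and 5822.2 to 6497.1 CPM in F1-γ. In all, 10 members (11.4%) had a first F1-C library under 0.75 of both other F1-C libraries in CPM, beside 21 (11.7%) of the 179 lincRNAs. That library also had the smallest miRNA total, 704953, against 1099486 and 1167284 in the other F1-C libraries. When the counts of these 10 were instead divided by the miRNA total, the median CV over all 6 libraries went from 23.9% to 21.8%, with a lower CV for 5 of them. Over all 88 members it went from 17.8% to 26.3%, with a lower CV for 7. Dividing by the smallest total raises the library in which these 10 were chosen as low, so a fall is favoured by construction. The part of the miRNA total in the low values was not tested.

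**Figure D4:**
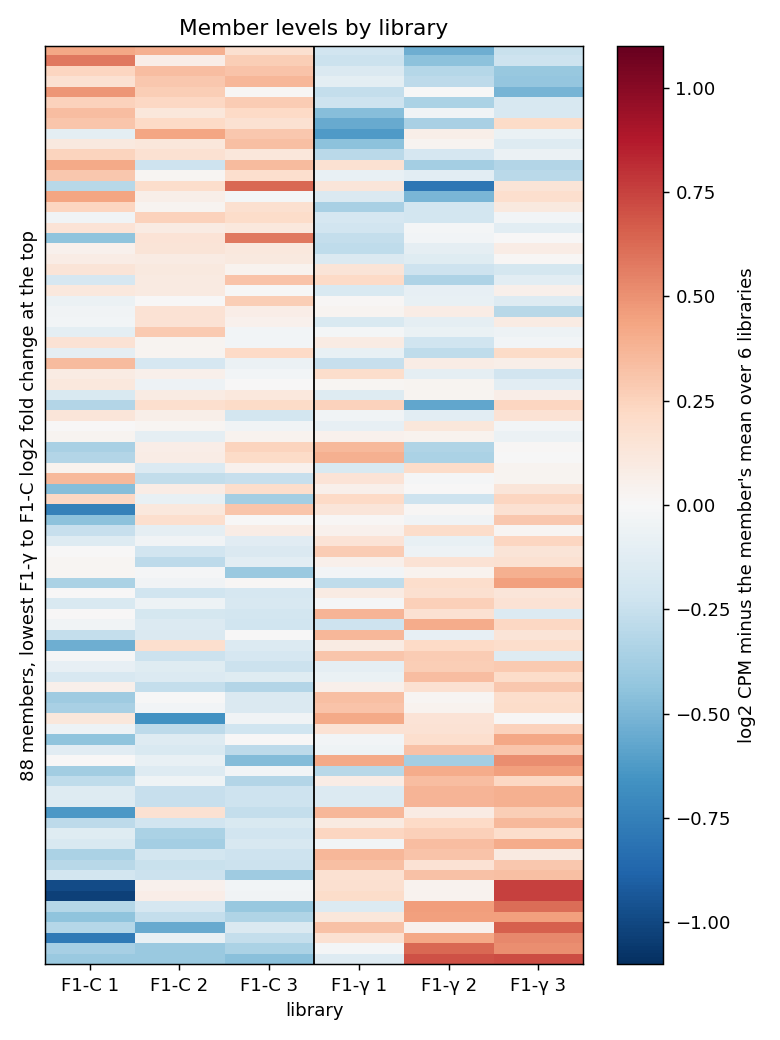
Level of each of the 88 members (rows, lowest log2 fold change at the top) in each library (columns), as log2 CPM minus the member's mean over the 6 libraries. Colours are capped at both ends of the scale. The members at the bottom are higher in F1-γ, the darkest cells of the first F1-C column belong to ENSDART00000174147.2 and ENSDART00000156870.3 (342.6 and 362.7 CPM), and the first F1-γ column is paler than the other F1-γ columns in several of the lowest rows.

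Some members had almost the same counts as another. Among 11836 pairs of a member with another lincRNA of mean count 50 or more, the squared difference of raw counts divided by their sum, added over the 6 libraries, was below 1 for 5 pairs. A pair with separate reads and equal expected counts would average about 6. All 5 pairs join 2 members. How often unrelated pairs fall this low among so many was not tested, and how a read that matches several places was counted is not given in the sources used here. ENSDART00000194925.1 and ENSDART00000194148.1 are annotated on opposite strands of the same interval (chromosome 11, 40601512 to 40610456) and had identical counts of 290, 299, 236, 434, 592 and 608 in the F1-C and then the F1-γ libraries. The counts of this interval therefore do not separate the strands.

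The other pairs include transcripts on different chromosomes. ENSDART00000174147.2 (chromosome 7, 11285 bp) had 34, 81 and 58 counts in F1-C against 120, 101 and 168 in F1-γ, and ENSDART00000156870.3 (chromosome 25, 22114 bp) had 36, 82 and 60 and then 121, 104 and 173. These members also came next after the called ones in log2 fold change among the 58, at 0.62 (SE 0.27) and 0.61 (SE 0.266), so those values may not be separate observations. Both had passed the filter only through their F1-γ libraries, which favours a positive value. Without the low first F1-C library the log2 fold change of ENSDART00000174147.2 was 0.31. ENSDART00000161442.3 (chromosome 7) had 40, 59, 50, 99, 56 and 72 counts and ENSDART00000149569.3 (chromosome 16) had 38, 57, 50, 94, 55 and 71, with the first F1-γ library highest in both. ENSDART00000157914.2 (chromosome 3, 32100 bp) and ENSDART00000194792.1 (chromosome 21, 31581 bp) had similar spans and close counts, 70, 89, 64, 96, 95 and 110 beside 64, 85, 67, 98, 104 and 109.

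**Figure D5:**
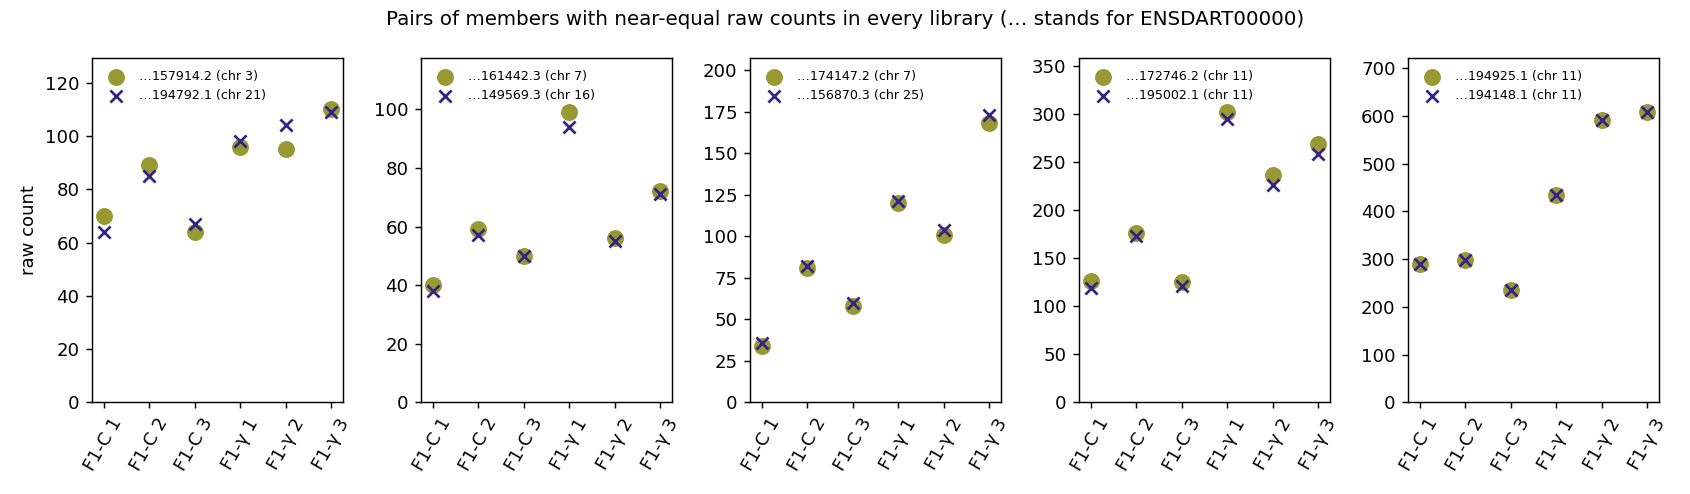
Raw counts (vertical, from 0) in the 6 libraries (horizontal) for the 5 pairs of members whose squared count difference over the sum, added over libraries, was below 1; circles and crosses stand for the members of a pair. The symbols overlap in nearly every library, with a largest difference of 11 counts, for the nested pair on chromosome 11.

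In some spans the count of a short opposite-strand transcript came to most of the member's count. Another lincRNA on the opposite strand overlapped 12 of the members. ENSDART00000172746.2 (chromosome 11, 36338258 to 36378872, plus strand) contains the whole of ENSDART00000195002.1 (36358733 to 36364389, minus strand). The inner transcript covers 13.9% of the outer span and its counts of 119, 173, 121, 295, 226 and 258 make up 96.5% of those of the outer, 126, 176, 125, 302, 237 and 269. If the reads are the same ones, the inner interval had 35.1 counts per kb and the rest of the span 0.205. ENSDART00000173850.2 (chromosome 7) contains ENSDART00000172658.2, which covers 13.1% of its span with 88.9% of its count. ENSDART00000173741.2 and ENSDART00000173831.2 nearby do not overlap it, yet had 22, 43, 28, 82, 94 and 105 and 22, 44, 27, 82, 94 and 105 counts. ENSDART00000172658.2 had 22, 43, 29, 80, 89 and 104, so the same reads may be counted at several places, which was not tested. ENSDART00000173850.2 was among the members called higher with the filter at a mean count of 50. ENSDART00000155086.2 (chromosome 4) contains ENSDART00000155171.2, which covers 16.3% of its span with 65.9% of its count. In other cases the short transcript only partly lay inside the member. ENSDART00000169082.2 overlaps 8.08% of the span of ENSDART00000164527.2 (chromosome 4) and had a count of 89.9% of that member's. ENSDART00000171763.2 overlaps 4.17% of ENSDART00000162394.2 (chromosome 7) and had 119% of its count.

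In other members the overlapping transcript had few or no counts. ENSDART00000194282.1, inside ENSDART00000145561.3 on chromosome 16, had 0 counts in all 6 libraries over 3889 bp, while the outer transcript had 384 to 984 counts per library. ENSDART00000140017.3, inside ENSDART00000155612.2 on chromosome 9, had a mean of 0.833 counts over 3523 bp of the 25062 bp span, beside 36 to 94 in the outer transcript. If counts ignore strand here as in the identical pair, the overlapped parts held almost none of the reads of these members.

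Distances of members to each other and to piRNA clusters, loci from which germline piRNAs that silence transposons arise, were also described. Apart from the overlapping pairs on chromosome 11, 2 pairs of members lay within 100 kb of each other. ENSDART00000156448.2 and ENSDART00000156307.2, on the minus strand of chromosome 3, were 2.79 kb apart, and ENSDART00000141394.3 and ENSDART00000194409.1, on opposite strands of chromosome 18, were 11.4 kb apart. The chromosome 3 neighbours had 2297.4 to 2388.4 and 1712.8 to 2064.2 CPM in F1-C, and log2 fold changes of 0.01 (SE 0.117) and 0.29 (SE 0.149). Of the 83 members with a piRNA cluster on their chromosome, 8 lay within 100 kb of it and 18 within 1000 kb, and the median distance was 4170 kb. The rule had left out lincRNAs that overlap a cluster, and distances were not compared with those of other lincRNAs.

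Together the members held 25.4%, 23.7% and 24.7% of the lincRNA counts across F1-C (mean 24.6% ± 0.856, SD, n = 3) against 31.1%, 33.2% and 34.0% across F1-γ (32.8% ± 1.51). In this share of the lincRNA total, every F1-γ library was above every F1-C library. One lincRNA that is no member, si:dkey-153m14.1, held 15.1% to 19.8% of the counts in F1-C against 0.66% to 1.58% in F1-γ. With it left out of the total, the members' share was 29.7% ± 0.665 in F1-C against 33.1% ± 1.38 in F1-γ, so the difference went from 8.16 to 3.46 percentage points. With lincRNA, miRNA, piRNA cluster and snRNA counts summed as the total, the mean shares were 1.67% in F1-C against 1.87% in F1-γ. The groups then overlapped, with the first F1-C library above the first F1-γ library. The raw member sums were 27730, 30736 and 23907 in F1-C against 40866, 41326 and 43368 in F1-γ.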

How the data were processed

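Small RNA libraries of 3 F1-C and 3 F1-γ embryo pools were compared, and each library was grouped by its label. For the F1-γ library whose title holds both 2 and 3 as its number, 3 was used. The authors trimmed reads with Trim Galore 0.3.7, removed those of low quality or unsuitable length, and aligned the rest to GRCz10. The deposited lincRNA and snRNA values are raw counts per annotated transcript, and the deposited miRNA and piRNA cluster values are estimated counts, in part fractional. Per the methods the cDNA libraries were non-directional, and reads were assigned to features with Unitas at its defaults. How a multimapping read counted on a lincRNA is not given in the sources used here. The table lists transcripts by ID without symbols. The malat1 transcript named in the study is among those left out by the rule, and other well-known lincRNAs could not be looked up.

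Members and lists were chosen with earlier results of these data known. Members are rows with a mean count of 50 or more and a span of 5000 bp or more. Raw counts were tested over the whole table with edgeR 4.0.16 (R 4.3.3), TMM and the quasi-likelihood test without covariates, where more than 100 counts were found in at least 3 libraries. Adjusted p is by Benjamini-Hochberg. CPM use the same TMM factors (0.854 to 0.911 in F1-C, 1.13 to 1.14 in F1-γ). The fit was tested on simulated counts. Named members were those highest in CPM (8), in counts per kb (5) and in span (5), highest and lowest in fold change (4 each) and in CV within F1-C (3 each), those at the edges of the rule, and those overlapping or sharing counts. Members named beyond these were chosen after their values were seen. Counts include sampling error, and p-values measure only the spread between 3 pools per group. Alternatives covered the filter, exact test, DESeq2 1.42.0, scaling, library sizes from other tables, identical rows, the replicate number as a block and each library left out. DESeq2 thus differed from the main fit both in method and in the lincRNAs used for scaling. Figures were drawn with matplotlib.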

Additional observations from a re-analysis of the deposited data

How the results depend on the processing

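The 18 of 125 lincRNAs called over the table became 30 of 179 with a mean count of 50 or more as the filter and 60 of 1086 with no filter. Of the same 125, they became 51 with table totals without TMM, 10 and 9 with library sizes from the miRNA and piRNA cluster tables, and 46 by adjusted p alone. Leaving out a library gave 17 to 30, with 125 tested without an F1-C library and 113 without an F1-γ library. The 3 members called became 7, 11, 29, 0, 0 and 14 in the same order, 7 with DESeq2, and 3 to 8 with a library left out. Members tested numbered 88 with the other filters, 50 without an F1-γ library and 58 otherwise. With the miRNA and piRNA cluster sizes, 5 and 6 members were below an unadjusted p of 0.05. The 3 members called in the main fit kept their direction there, with larger SEs. The members' median log2 fold change of 0.23 was 0.32 with DESeq2, 0.16 with upper-quartile scaling, 0.59 with table totals, 0.33 with piRNA cluster sizes and 0.12 to 0.23 with a library left out. The difference in summed share, 8.16 percentage points, was 3.46 without si:dkey-153m14.1 and 7.55 to 9 with a library left out. With all 4 tables as the total it was 0.208, on smaller shares of 1.67% in F1-C against 1.87% in F1-γ. A mean count of 100 or more left 53 members instead of 88. The causes were not tested, beyond the fewer lincRNAs tested or the other totals that these settings set by construction. The replicate number as a block gave 19 calls over the table and 3 among the members. Numbers were not shown to pair the libraries, whose same-numbered deviations correlated at -0.202, -0.159 and -0.0899. Of 431 fold changes of 30 named members under these settings, 392 stayed within 1 SE. Of the named members, 9 changed sign in at least 1 setting, 5 of them with table totals, including ENSDART00000194081.1, ENSDART00000148063.3, ENSDART00000139533.2 and ENSDART00000175829.2 (-0.29 to 0.08), and 0 of the 9 were among the 3 called. Depth limits the 30 members under the filter, and SEs in the main fit ran from 0.097 to 0.278.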
